A study of Arabidopsis thaliana with 2 samples.

Results

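WRKY transcription factors are a large plant family of DNA-binding proteins. The 42 genes described here are the rows of both count files whose locus identifier is on a fixed list of WRKY loci, out of 27336 loci in all. Every one of the 42 was found in both files, and the RefSeq table named each as a WRKY gene by its symbol or a synonym. The same table gave a WRKY name to 30 further loci in the files, which were not on the list. Members of the list were chosen with earlier results of these data known. The RNA came from leaves of Columbia plants of Arabidopsis thaliana, of the atpip1;2-1 mutant (stock N519794) and of the wild type (stock N60000). The series title describes the mutant as deficient in PIP1;2, a plasma membrane aquaporin, a channel for water. Plants of both genotypes were 3 weeks old, grew on soil with 12 h of light a day and received no treatment that the labels name. Each genotype is 1 library of RNA from 10 plants, so no difference below has a replicate check. No source used here gives the place of the mutation in the gene.

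WRKY proteins share a DNA-binding domain with a zinc finger and a conserved heptapeptide after which the family is named, and they bind W-box sites in DNA. Pathogen patterns sensed at the cell surface start MAP kinase cascades that phosphorylate some WRKY proteins, and many WRKY genes are themselves rapidly induced by infection, wounding, salicylic acid or leaf ageing. In leaves the family is best known for defence, for the balance of salicylic acid and jasmonate responses and for senescence, and its structural groups (I, IIa to IIe and III) follow the number of domains and the form of the zinc finger.

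The stretch that names the family is shown first because it separates the members by structure. A search of the longest coding sequence of each gene in the RefSeq annotation (assembly TAIR10.1) found 2 copies in each of the 10 members of group I and 1 copy in each of the other 32 members. The 21 coding bases are printed 5′ to 3′ on the gene strand, with the codon of residue 6 in capitals.
WRKY33, first domain: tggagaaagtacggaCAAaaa
WRKY33, second domain: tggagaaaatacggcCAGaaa
WRKY70: tggaggaaatatggaCAAaag
WRKY53: tggagaaaatatggtCAAaaa
WRKY50: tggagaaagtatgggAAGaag
WRKY51: tggaggaagtatggcAAGaaa
The search allowed any residue at position 6 and fixed the rest, as WRKYG before it and K after it. Copies that vary elsewhere were therefore not counted. Residue 6 was glutamine in 50 of the 52 copies found. It was lysine in WRKY50 and WRKY51, where the codon carries C16A against the second domain of WRKY33, with positions counted from 1 at the first base printed.

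The labels were checked on the mutated gene and on tissue markers. PIP1;2 (AT2G45960) had 566 reads in the mutant library, against 4211 in the wild-type library, a log2 ratio of -2.95 with a 95% interval of -3.08 to -2.83. The libraries held 4041759 reads in the mutant and 4079098 in the wild type. The leaf markers RBCS1A, RBCS3B, LHCB1.3 and BCA1 together held 238683 reads in the mutant and 261738 in the wild type (log2 ratio -0.19). The 4 floral markers held 5 reads in the mutant and 3 in the wild type, with AP3 at 0 in both. The 4 root markers held 72 reads in each library, most of them from SCR, which is also active in leaves, while PYK10 had 15 in the mutant and 10 in the wild type and CASP1 had 1 in each. The 4 guard cell markers had 594 reads in the mutant, against 769 in the wild type (log2 ratio -0.43, -0.59 to -0.27). This sum was set by GC1, with 466 reads in the mutant and 637 in the wild type. Without GC1 the markers FAMA, KAT1 and MYB60 held 128 reads in the mutant and 132 in the wild type (-0.10, -0.46 to 0.26). The 3 phloem markers had 861 reads in the mutant and 905 in the wild type, of which SUC2 gave 695 in the mutant and 748 in the wild type. The part of these cell types in the WRKY values was not tested, and in pooled leaves fewer cells of a type and less RNA per cell cannot be told apart.

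The listed WRKY genes held more reads as a sum in the mutant library, and most single genes differed by less than 2-fold. The list was chosen with earlier results of these data known, so the sum describes these genes and not the whole family. Over all 42 genes the mutant library held 2738 reads and the wild-type library 1898, a log2 ratio of the sums of 0.47 (0.39 to 0.56) after scaling by TMM effective library sizes. WRKY70 gave 25.9% of these reads in the mutant (95% exact binomial interval 24.2% to 27.5%) and 24.3% in the wild type (22.4% to 26.3%). Without it the log2 ratio of the sums was 0.44 (0.34 to 0.54). For the 30 WRKY-named loci not on the list this ratio was 0.21 (-0.08 to 0.51), an interval that includes equal reads. Here and below, intervals are exact, at the 95% level, and cover counting error only.

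A locus entered the gene-by-gene comparison when it had at least 20 reads over both libraries. This held for 29 of the 42 genes and for 15111 of all loci. A gene is called higher or lower when its reads in the libraries differed by an exact binomial test, adjusted over all 15111 loci, and by at least 2-fold. The test compares these libraries and not the genotypes. WRKY33 was the 1 of 29 genes called higher, where 1.3% of all loci were called higher, and 0 of 29 were called lower by this exact test, where 1.1% of all loci were. Over all loci 197 were called higher and 166 lower, a split that followed the scale: 252 and 118 with total counts, 254 and 118 with totals without organelle and abundant genes, 530 and 57 with the sum of 11 reference genes, and 166 and 216 with the median ratio of those genes set to 0. In all of these WRKY33 was called higher and 0 of the WRKY genes lower. By a looser description, at least 1.5-fold higher with an interval above 0, there were 7 of the 29 genes against 5.34% of all loci. These were WRKY6, WRKY15, WRKY25, WRKY26, WRKY33, WRKY40 and WRKY53. Of these, WRKY26 (19 reads in the mutant, 5 in the wild type) passed the read minimum through the library where it is high. The mirror description, at least 1.5-fold lower with an interval below 0, held for 1 of the 29 genes, WRKY2, against 5.93% of all loci.

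Of the 29 genes, 23 had a log2 ratio above 0 and 6 below, and the median was 0.41. Over all 15111 loci 49.8% lay above 0, and the median was -0.0025. The quartiles were 0.08 and 0.70 for the 29 genes, against -0.27 and 0.26 for all loci. Because the read minimum lets a gene with few reads pass through the library where it is high, these counts describe the 29 genes that passed and not the family. Most of the 29 genes lie above the line of equal reads in the plot of all loci.

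**Figure D1:**
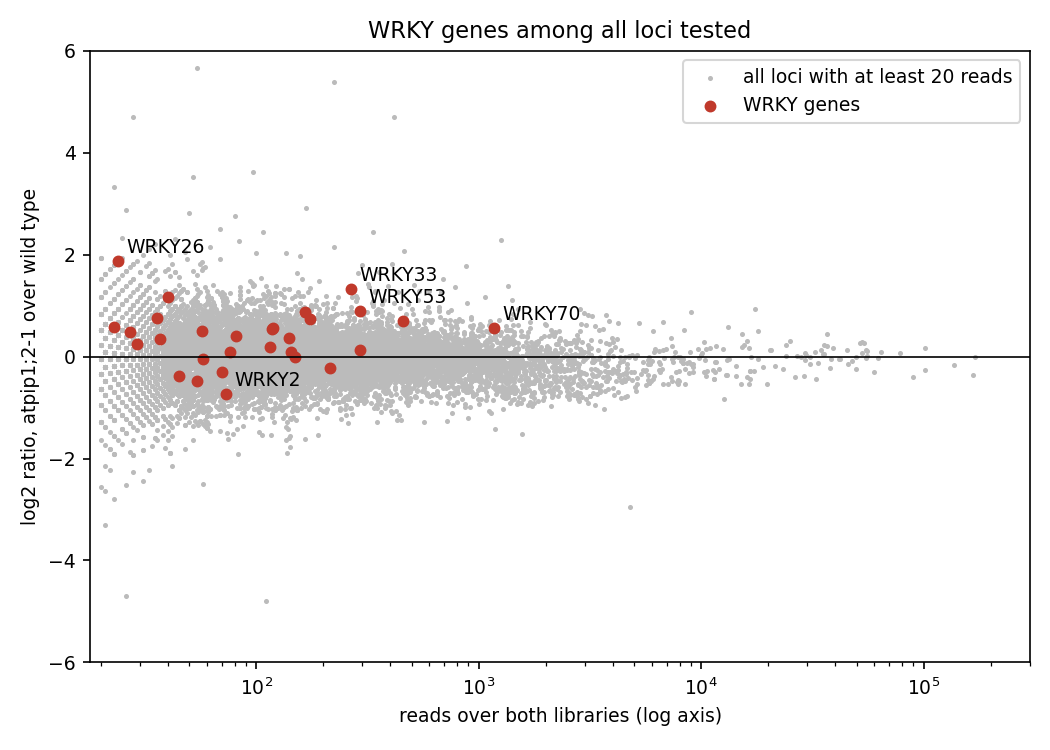
Log2 ratio of the mutant over the wild-type library (vertical axis) against the reads over both libraries (horizontal log axis) for 15111 loci in grey and 29 WRKY genes in red. WRKY26 lies highest at 1.87 and WRKY2 lowest at -0.74, and 23 of the 29 WRKY genes are above 0.

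Group I holds the factor with the clearest difference. WRKY33 (AT2G38470, chromosome 2) is required for resistance to necrotrophic fungi and activates the genes of the antimicrobial compound camalexin. It had 192 reads in the mutant and 74 in the wild type, or 46.4 CPM (library-scaled counts per 1e6 reads, interval 40.0 to 53.4) in the mutant against 18.6 CPM (14.6 to 23.3) in the wild type. These intervals do not overlap, and the ratio was 2.49-fold (1.90 to 3.31), or 1.32 on the log2 scale. The call was lost when a biological coefficient of variation of 0.2 between plant pools was assumed (edgeR exact test, adjusted p = 0.854), a spread that 1 library per genotype cannot supply. WRKY33 made up 7.01% of the WRKY reads in the mutant (6.08% to 8.03%), against 3.90% in the wild type (3.07% to 4.87%).

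WRKY25 and WRKY26, which act with WRKY33 in heat tolerance, pointed the same way. WRKY25 (AT2G30250) had 109 reads in the mutant and 57 in the wild type, a ratio of 1.84-fold whose interval (1.32 to 2.58) includes 2-fold but not equal reads. WRKY26 (AT5G07100) had 19 reads in the mutant and 5 in the wild type, the largest log2 ratio of the 29 at 1.87, with a wide interval of 0.40 to 3.65. This gene passed the read minimum through the library where it is high. It missed the call by its adjusted p of 0.0592 in the exact binomial test. Over the alternatives this p ran from 0.0153 to 1, and it was between 0.0153 and 0.0475, enough for a call, with total counts, the sum of reference genes or totals without organelle and abundant genes as the scale, or with another form of the exact p. The other group I genes were closer to equal. WRKY4, which with WRKY3 takes part in resistance to necrotrophs, had 47 reads in the mutant and 34 in the wild type (log2 ratio 0.41, -0.26 to 1.09). WRKY3 had 76 reads in the mutant and 73 in the wild type (0.0012, -0.48 to 0.48), and the sign of this ratio turned under a pair of alternatives. WRKY20 had 80 reads in the mutant and 60 in the wild type, WRKY1 had 75 in the mutant and 68 in the wild type, and WRKY32 had 29 in each. WRKY2, known from pollen and the zygote, was the lowest of the 29 genes, with 28 reads in the mutant against 45 in the wild type (-0.74, -1.48 to -0.03). WRKY44, also called TTG2, a regulator of trichomes and the seed coat, had 5 reads in the mutant and 4 in the wild type and was not tested.

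**Figure D2:**
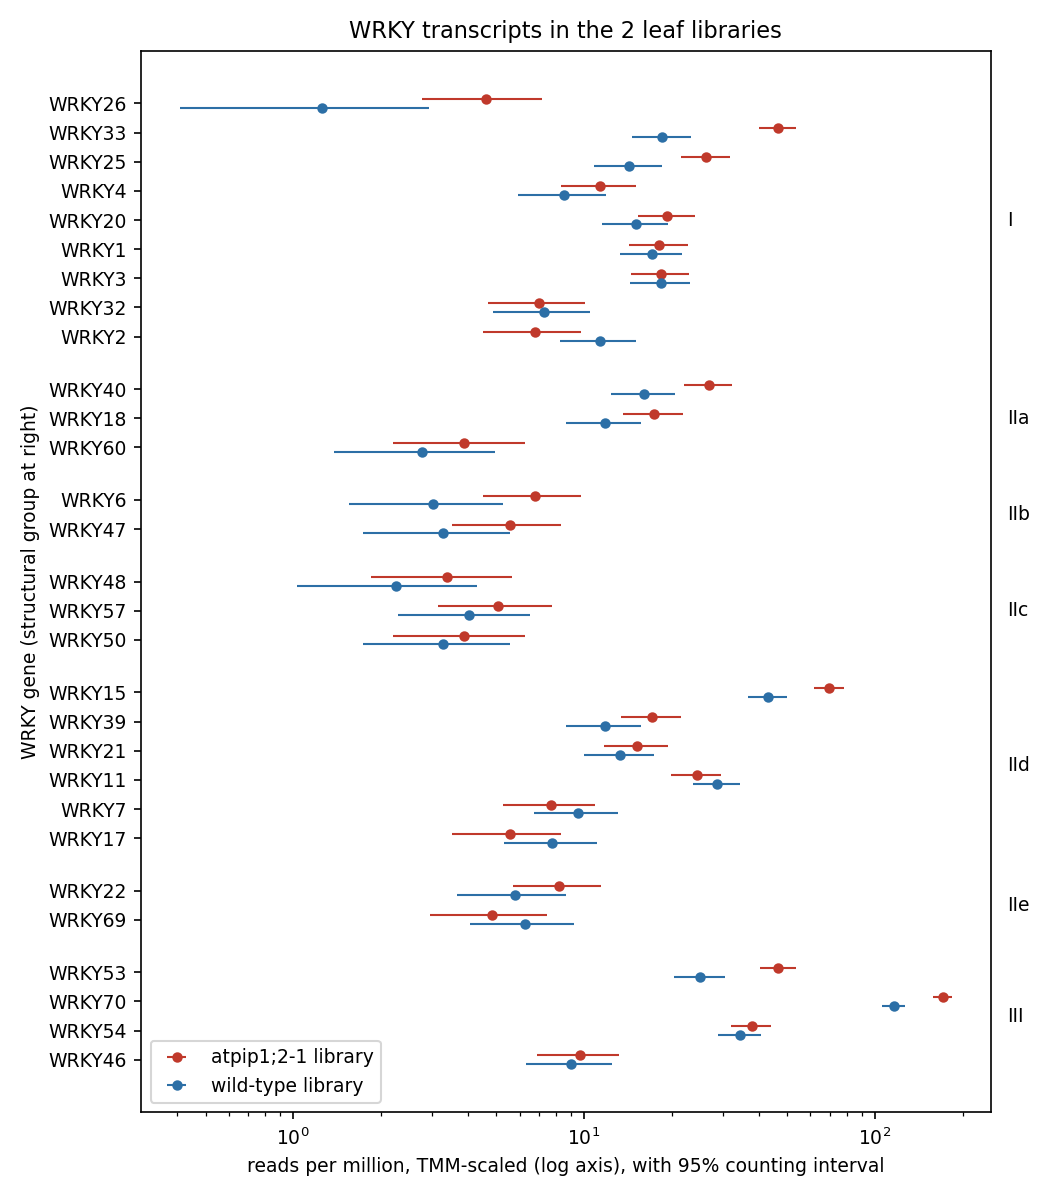
Counts per 1e6 reads (CPM) of 29 WRKY genes, scaled by TMM effective library sizes (log axis), in the atpip1;2-1 library (red) and the wild-type library (blue), by structural group. Bars are 95% counting intervals of 1 library each. The red and blue intervals of WRKY33 (46.4 CPM in the mutant, 18.6 CPM in the wild type) and WRKY70 (171 CPM in the mutant, 116 CPM in the wild type) do not overlap. Those of WRKY15, WRKY25, WRKY40 and WRKY53 do not overlap either. The share of all loci with intervals that do not overlap was not computed.

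Group IIa holds 3 factors that bind one another and restrain pattern-triggered defence and abscisic acid responses. All 3 had more reads in the mutant library. WRKY40 (AT1G80840) had 111 reads in the mutant and 64 in the wild type (1.67-fold, 1.21 to 2.30). WRKY18 (AT4G31800) had 72 in the mutant and 47 in the wild type (1.47-fold, 1.01 to 2.17). WRKY60 (AT2G25000) had 16 in the mutant and 11 in the wild type (1.40-fold, 0.609 to 3.33). None of the 3 was called, and the interval of WRKY60 includes equal reads. In group IIb, WRKY6, which acts in senescence and phosphate transport, had 28 reads in the mutant against 12 in the wild type (2.24-fold, 1.10 to 4.84). Its ratio exceeded 2-fold but it was not called by the adjusted exact test. WRKY47 had 23 reads in the mutant and 13 in the wild type, and WRKY31 had 1 in the mutant and 0 in the wild type.

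Group IIc was thinly read. WRKY48, a repressor of basal defence, had 14 reads in the mutant and 9 in the wild type. WRKY57, known from drought tolerance and senescence, had 21 in the mutant and 16 in the wild type. The pair with lysine at residue 6, which represses jasmonate responses when oleic acid is low, had intervals that include equal reads. WRKY50 had 16 reads in the mutant and 13 in the wild type (log2 ratio 0.24, -0.91 to 1.42), and WRKY51 had 8 in the mutant and 10 in the wild type (-0.38, -1.92 to 1.11). WRKY8 had 9 reads in the mutant and 2 in the wild type, a log2 ratio of 2.11 whose interval of -0.16 to 5.36 includes 0. WRKY13, known from stem sclerenchyma, had 1 read in the mutant and 2 in the wild type. WRKY75, a factor of phosphate starvation and senescence, had 0 reads in both libraries.

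Group IId, whose proteins bind calmodulin, contained genes on both sides. WRKY15 (AT2G23320), a factor of osmotic and oxidative stress responses, had 288 reads in the mutant and 171 in the wild type (log2 ratio 0.70, 0.42 to 0.98). WRKY39, which has a part in heat tolerance, had 71 reads in the mutant and 47 in the wild type (0.54, -0.014 to 1.10), and WRKY21 had 63 in the mutant and 53 in the wild type. Against these, the paired negative regulators of basal resistance had fewer reads in the mutant. WRKY11 had 101 reads in the mutant and 114 in the wild type (-0.23, -0.63 to 0.17), and WRKY17 had 23 in the mutant and 31 in the wild type (-0.49, -1.33 to 0.34). Each of these intervals includes 0, and WRKY11 lay at 0.017 with the sum of reference genes as the scale. The interval of WRKY15 lies wholly above that of WRKY11, so that the split within the group exceeds the counting error for this pair. WRKY7, also described as a negative regulator of defence, had 32 reads in the mutant and 38 in the wild type, and WRKY74 had 2 in the mutant and 1 in the wild type. In group IIe, WRKY22, which acts downstream of a flagellin-activated MAP kinase cascade, had 34 reads in the mutant and 23 in the wild type (0.51, -0.30 to 1.34). WRKY69 had 20 in the mutant and 25 in the wild type (-0.38, -1.30 to 0.53), and WRKY65 had 4 in the mutant and 1 in the wild type. WRKY29, which acts in the same cascade as WRKY22, had 0 reads in both.

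**Figure D3:**
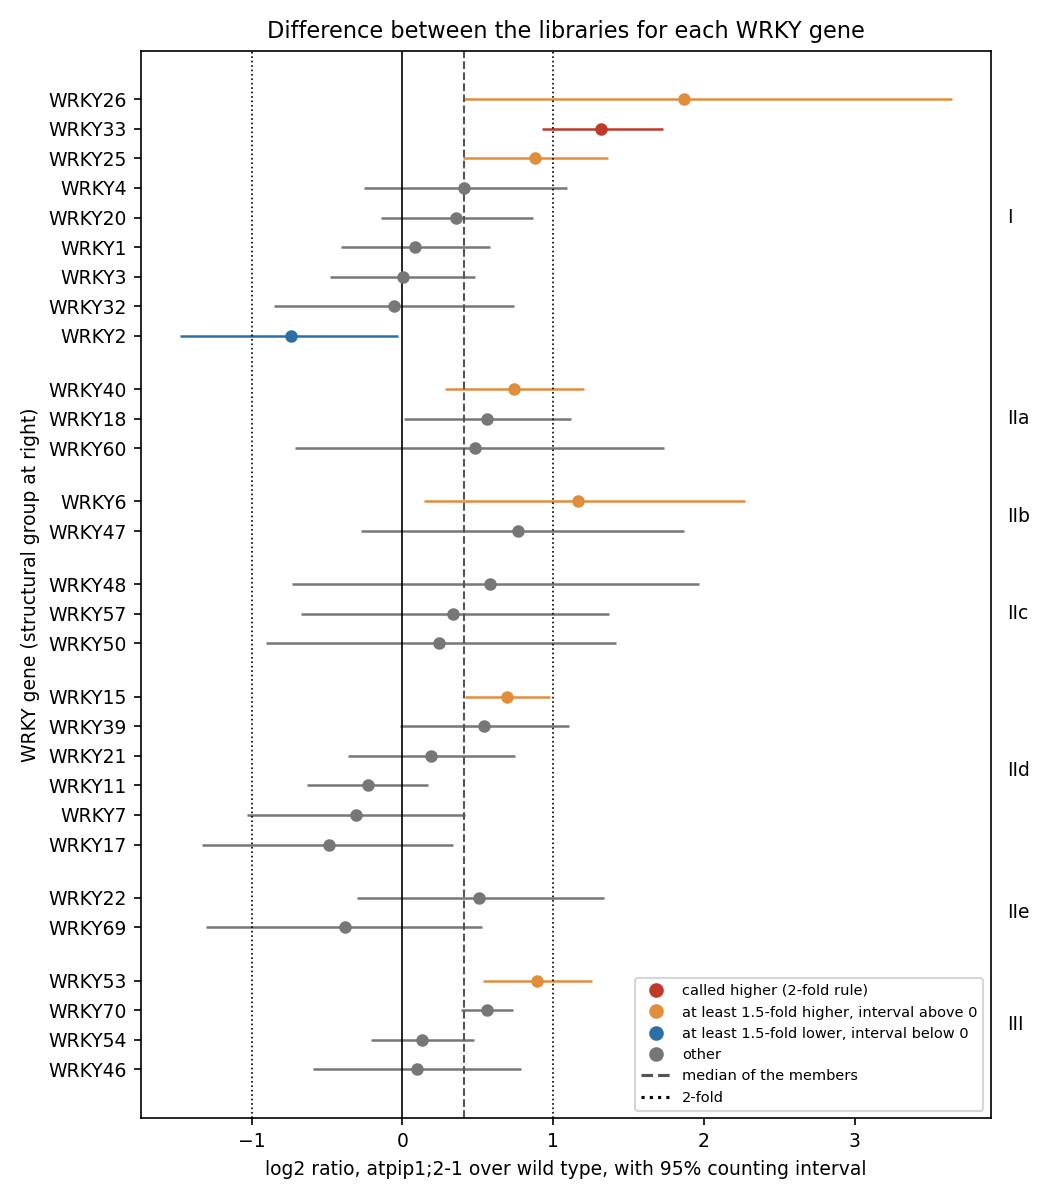
Log2 ratio of the atpip1;2-1 over the wild-type library for 29 WRKY genes by structural group, with 95% counting intervals. WRKY33 (red) is the gene called by the 2-fold rule, the 6 genes in orange were at least 1.5-fold higher with an interval above 0, WRKY2 (blue) was at least 1.5-fold lower with an interval below 0, and the dashed line marks the median of 0.41.

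Group III holds salicylic acid and senescence regulators and gave the most WRKY reads. WRKY70 (AT3G56400, chromosome 3), a node between salicylic acid and jasmonate signalling, had 708 reads in the mutant and 462 in the wild type, or 171 CPM (159 to 184) in the mutant against 116 CPM (106 to 127) in the wild type. With so many reads the 1.47-fold ratio had a narrow interval (1.31 to 1.66), which excludes equal reads as well as 2-fold. WRKY54 (AT2G40750), which shares roles with WRKY70 in salicylic acid signalling and in delaying senescence, had 156 reads in the mutant and 137 in the wild type (1.09-fold, 0.865 to 1.39). The intervals of this pair overlap, which does not show that the ratios are equal, and the difference between them was not tested. WRKY53 (AT4G23810), an activator of leaf senescence, had 193 reads in the mutant and 100 in the wild type (1.86-fold, 1.45 to 2.39), a difference beyond counting error with a ratio under 2-fold. WRKY46, which acts with WRKY53 and WRKY70 in basal resistance, had 40 reads in the mutant and 36 in the wild type (1.07-fold, 0.664 to 1.72).

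The remaining group III genes were too thinly read to be tested at the minimum used. WRKY38, a negative regulator of basal defence, had 12 reads in the mutant and 1 in the wild type (log2 ratio 3.53, 0.77 to 8.95). It was called when the minimum was lowered to 10 reads or removed, and the interval shows how little 1 read fixes. WRKY30 had 10 reads in the mutant and 5 in the wild type, WRKY41 had 1 in the mutant and 5 in the wild type (-2.38, -7.94 to 0.78), and WRKY55 had 0 in both. In total 13 of the 42 genes fell under the minimum, with at most 18 reads each. Among them 7 had more reads in the mutant, 3 had fewer and 3 (WRKY29, WRKY55 and WRKY75) had none. Their summed reads were 53 in the mutant and 31 in the wild type (0.72, 0.05 to 1.41). WRKY38 gave 12 of these reads in the mutant and 1 in the wild type. The sum without it was not computed, so a difference for the other genes is not shown. For a gene listed at 0 the limit is 3 reads, equal to 0.724 CPM (mutant) and 0.754 CPM (wild type).

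Since WRKY proteins bind W-boxes and many WRKY genes carry them, the 500 bases before each gene's start in the RefSeq annotation (TAIR10.1) were searched for TTGACC and TTGACT on both strands, which cannot both match at the same position. Such a match is a description of the letters and not evidence of binding. At least 1 was found before 24 of the 42 genes (57.1%) and before 45.2% of 27443 protein-coding nuclear genes. At least 3 were found before 4 of the 42 (9.5%: WRKY11, WRKY17, WRKY30 and WRKY33) and before 4.0% of the nuclear genes. Matches are shown in capitals with 10 bases on each side, read along the gene strand, for the called gene, its relative WRKY26, the strongly read WRKY53 with its thinly read relative WRKY41, and WRKY11, whose ratio lay below 0.
WRKY33, 292 bases before the start: gtacacctacAGTCAAaattttcaag
WRKY33, 96 bases before the start: aacgtttgagAGTCAAggccacaagg
WRKY33, 32 bases before the start: tattttcaacGGTCAAactttttatc
WRKY26, 58 bases before the start: tacacaaaaaAGTCAAacattttggt
WRKY53, 219 bases before the start: tggtcagcctTTGACCttatactctt
WRKY53, 71 bases before the start: ttggtcatttGGTCAAattttcaaac
WRKY41, 194 bases before the start: tggtcagcatTTGACCtatagtaaac
WRKY41, 78 bases before the start: ttgctcacttGGTCAAattttcaaac
WRKY11, 460 bases before the start: taaaatcattAGTCAAaccattactg
WRKY11, 307 bases before the start: ataagtaaacAGTCAAattttatcaa
WRKY11, 106 bases before the start: gctttataaaAGTCAAatgtatccat
Whether the number of matches goes with the ratio was not tested. WRKY33 at 1.32, WRKY11 at -0.23 and WRKY17 at -0.49 on the log2 scale each had 3 matches, whereas WRKY6 at 1.17, WRKY40 at 0.74 and WRKY70 at 0.56 had 0. WRKY53 and WRKY41 had 2 each at similar distances. Their ratios were 0.89 (0.54 to 1.25) for WRKY53 and -2.38 (-7.94 to 0.78) for the 6 reads of WRKY41, and these intervals overlap.

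Upstream of the WRKY proteins, MKK9, a MAP kinase kinase, was the 1 of 10 genes of the MAP kinase cascade called higher, with 119 reads in the mutant and 57 in the wild type (2.01-fold, 1.45 to 2.80). None of the 10 was called lower by the exact test. Over all 15111 loci 1.3% were called higher and 1.1% lower. The ratio of MKK9 is at the edge of the rule, and the call was lost at 0.95 on the log2 scale when the median of the reference genes was set to 0 and with an assumed biological variation. MPK3, the kinase that phosphorylates WRKY33, had 519 reads in the mutant and 299 in the wild type (0.74, 0.53 to 0.95), a difference beyond counting error but short of 2-fold. Its partner MPK6 had 140 in the mutant and 120 in the wild type (0.17, -0.20 to 0.53), and MPK4 had 198 in the mutant and 192 in the wild type (-0.013, -0.31 to 0.28). The median of the cascade was 0.16, against -0.0025 over all loci tested. Of 8 surface receptors and their partners 0 were called by the exact binomial test in either direction, and the median was 0.33. RBOHD, the oxidase of the defence burst, had 189 reads in the mutant and 116 in the wild type (0.65, 0.31 to 0.99), and BKK1, a co-receptor, had 179 in the mutant and 163 in the wild type. Of 6 VQ proteins, which bind WRKY proteins, 0 were called by the same test and the median was 0.20. SIB2 had 178 reads in the mutant and 137 in the wild type, and SIB1, which binds WRKY33 like SIB2, had 144 in the mutant and 122 in the wild type. MKS1, which links WRKY33 to MPK4, had 104 in the mutant and 103 in the wild type (-0.043, -0.45 to 0.36).

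Downstream, 18 genes reported as targets of WRKY proteins included 10 with enough reads. Of these 0 were called by that test, and the median was 0.13. Over all 15111 loci 1.3% were called higher and 1.1% lower, and the median was -0.0025. PAD3, the last enzyme of camalexin synthesis and a target of WRKY33, had 20 reads in the mutant and 10 in the wild type (0.94, -0.22 to 2.20), and CYP71A13, an earlier step, had 82 in the mutant and 74 in the wild type (0.091, -0.38 to 0.56). CAT3, a catalase gene, had 11588 reads in the mutant and 5807 in the wild type, a log2 ratio of 0.94 (0.89 to 0.99) just below 2-fold, while CAT2 had 2984 in the mutant and 3041 in the wild type. SAG12, the senescence marker bound by WRKY53, had 0 reads in both. Of 9 salicylic acid genes 1 was called higher, EDS5, a transporter of the pathway, with 71 reads in the mutant and 25 in the wild type (1.45, 0.77 to 2.17), and 0 were called lower by the exact test, with a median of 0.08. PR2 had 876 reads in the mutant and 551 in the wild type (0.61, 0.46 to 0.77), and PR5 had 943 in the mutant and 833 in the wild type. PR1 had 176 in the mutant and 279 in the wild type (-0.72, -1.0 to -0.44). The pathogenesis-related genes thus lay on both sides of 0. Among 5 trichome genes that act with WRKY44, TTG1 had 213 reads in the mutant and 149 in the wild type (0.46, 0.15 to 0.77), GL2 had 20 in the mutant and 15 in the wild type, and GL1, GL3 and EGL3 had 0 in both. The 11 reference genes had 0 calls by the same test and a median of 0.05, but they did not all lie near 0. EF1A had 4645 reads in the mutant and 7987 in the wild type (-0.84, -0.89 to -0.79), GAPC1 had 1377 in the mutant and 1836 in the wild type (-0.47, -0.57 to -0.37), and UBQ10 had 6415 in the mutant and 5306 in the wild type (0.22, 0.16 to 0.27). The sum of the 11 genes lay at -0.25 (-0.28 to -0.22), and at 0.087 (0.049 to 0.13) without EF1A, so the scale from this sum, which calls 5 WRKY genes higher, rests on EF1A.

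**Figure D4:**
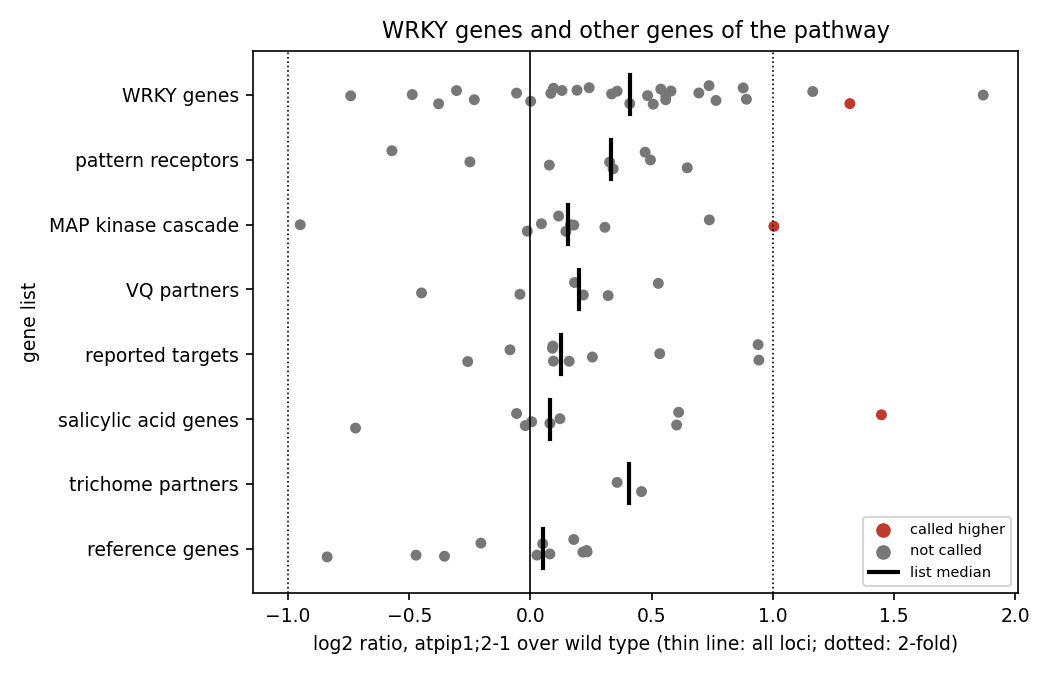
Log2 ratio of the atpip1;2-1 over the wild-type library for each tested gene of 8 lists (points, red where called higher), with the list median as a thick bar. The WRKY median of 0.41 lies beside 0.41 for the trichome partners, of which 2 genes were tested, and 0.33 for the receptors. Medians were 0.20 for the VQ partners, 0.16 for the MAP kinase cascade and 0.13 for the reported targets. The salicylic acid genes had 0.08 and the reference genes 0.05.

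Among the 30 loci with a WRKY name that were not on the list, 16 had 0 reads in both libraries and 3 had enough reads to be tested. WRKY19 had 76 reads in the mutant and 56 in the wild type (0.38, -0.13 to 0.91), RRS1, a disease resistance protein with a WRKY domain, had 34 in the mutant and 27 in the wild type (0.28, -0.50 to 1.06), and TTR1 had 59 in the mutant and 57 in the wild type (-0.0072, -0.56 to 0.54). None of these was called. The 30 loci together held 216 reads in the mutant and 179 in the wild type (0.21, -0.08 to 0.51).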

How the data were processed

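The authors deposited read counts for each locus in 1 file per genotype; the values are whole numbers whose totals differ, so they were not scaled. Per the labels' protocols the libraries were made from transcript 3' ends by a company and sequenced on a Genome Analyzer II. Per the submitters' processing notes the build was TAIR 9. The aligner, counter and strand setting were not given in the sources used here. Near-identical or overlapping genes are therefore uncertain. Counts were not divided by transcript length, and the labels name no molecular identifiers, so reads may not be independent molecules and intervals and limits cover counting error only. Each file listed 27337 rows, of which 1 repeated another and was dropped.

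Library sizes of 4041759 (mutant) and 4079098 (wild type) reads were multiplied by TMM factors of 1.02 and 0.976 (edgeR 4.0.16, R 4.3.3). With 1 library per genotype the quasi-likelihood test has no residual degrees of freedom, so each locus got an exact binomial test, two-sided by doubling the smaller tail, with Benjamini-Hochberg adjustment over 15111 loci with at least 20 reads. A call needed an adjusted p under 0.05, a 95% Clopper-Pearson interval without 0 and at least 2-fold. Alternatives were other library scales, read minimums, fold limits, thinning, edgeR's exact test with assumed variation and another exact p. Sequences came from RefSeq's TAIR10.1 assembly at its own annotation. No coordinates are printed, as this build differs from that of the counts. Python 3.11.15, numpy 2.4.6, scipy 1.17.1, pandas 2.3.3 and matplotlib 3.10.9 were used. DESeq2 1.42.0 gave alternative size factors. Members and lists were chosen with earlier results of these data known. All members are named. In the pathway and reference lists the called genes are named, or else the 2 with most reads, and from the marker lists examples. Further genes of those lists (MPK3, MPK6, MPK4, PR2, PR5, MKS1, PAD3, CYP71A13, SAG12, PR1, GL1, GL3, EGL3 and GAPC1), the marker examples, the loci outside the list and the W-boxes of WRKY53, WRKY41 and WRKY11 were chosen after values had been seen.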

Additional observations from a re-analysis of the deposited data

How the results depend on the processing

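The median log2 ratio of the WRKY genes tested lay between 0.36 and 0.66. A scale shifts every ratio by the same amount, and the sum of the 11 reference genes, which gave 0.66, put the median of all loci at 0.25. Fold limits and other tests leave this median as it is. The summed ratio of the 42 genes was not recomputed. The number of WRKY genes called higher was 1 and became 2 with total counts, with totals without organelle and abundant genes, with at least 10 reads, with no read minimum and with an exact p summed by likelihood (added after seeing the data), 5 with the sum of reference genes or with 1.5-fold, 6 with no minimum fold and 0 with edgeR's exact test when a biological CV of 0.2 was assumed. The share of all loci called higher moved too: it was 3.51% with the sum of reference genes, 3.28% at 1.5-fold, 5.74% with no minimum fold, 0.0993% at a CV of 0.2 and 0.959% to 1.68% in the settings with 2 calls. The number of WRKY genes called lower was 0 throughout. The added calls were WRKY26 on the count scales and the other exact p, WRKY38 at the lower minimums, WRKY6, WRKY25, WRKY26 and WRKY53 with the sum of reference genes, WRKY15, WRKY25, WRKY40 and WRKY53 at 1.5-fold, and these with WRKY70 with no minimum fold. WRKY33 was called in every alternative except that with a CV of 0.2. Signs turned for WRKY32 (0.013 with total counts, 0.015 without organelle and abundant genes, 0.19 with the sum of reference genes), WRKY11 (0.017 with that sum) and WRKY3 (-0.012 after thinning the deeper library, and -0.0498 with the reference gene median set to 0, a scale added after seeing the data). The causes were not tested. No paired analysis was possible because each genotype has 1 library. Depth limits the 13 genes with fewer than 20 reads, and no replicate shows the spread between plant pools.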
